A study of Homo sapiens with 10 samples.

Results

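The genes described here are the fibroblast growth factor (FGF) receptors FGFR1, FGFR2, FGFR3, FGFR4 and FGFRL1, the FGF carrier FGFBP1 and the ligand genes FGF1, FGF2, FGF11 and FGF19. They were taken by gene name from the deposited count table, 10 of its 58735 genes, and each name matched 1 row. The cells were A253, a human salivary gland line of squamous cell carcinoma grown in DMEM with 10% FBS, and their RNA was sequenced. The control carried Cas9 and a guide RNA against dTomato, a fluorescent protein that is not of human origin. The clones Cl1 and Cl10 carried Cas9 and a pair of guides in the introns around exon 2 of DUSP1, the phosphatase that inactivates MAP kinases, and both were heterozygous for the deletion. The paper nevertheless reports that neither clone showed DUSP1 protein. Each group had 2 libraries. Each of Cl1 and Cl10 is a single clone, so a difference between a clone and the control holds for that clone, and whether the control was clonal is not given in the sources used here. The methods speak of replicates and, in general terms, of repeated guide RNA experiments, but do not say that the 2 libraries of a group came from separate cultures. The p-values may therefore measure only the spread between these libraries, which may be technical.

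FGFs are secreted ligands that bind receptor tyrosine kinases together with heparan sulfate chains on the cell surface, and the activated receptors recruit FRS2 and turn on the RAS-ERK cascade. FGFR1 to FGFR4 carry the kinase, whereas FGFRL1 binds FGFs without an intracellular kinase domain. FGFBP1 releases FGFs from the matrix, FGF1 and FGF2 are widely acting paracrine ligands, FGF11 belongs to the intracellular FGF homologous factors, and FGF19 is a hormone-like ligand that signals mainly through FGFR4 with the co-receptor KLB. In epithelia FGFR2 is mostly spliced to the IIIb form, which the per-gene counts used here cannot tell from the IIIc form.

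FGFR2, FGFR3 and FGFR4 are the receptor kinases whose levels differed most between the 3 groups, and the 250 bases before their start sites are shown for that reason (RefSeq, the farthest upstream of 5 listed starts for FGFR2 and of 2 for FGFR4, GRCh38.p14, gene strand, with matches to the GC box, GGGCGG on either strand, in capitals). FGFR2 is read from the minus strand at chr10:121598445-121598694, FGFR3 from the plus strand at chr4:1793043-1793292, and FGFR4 from the plus strand at chr5:177086665-177086914.
FGFR2: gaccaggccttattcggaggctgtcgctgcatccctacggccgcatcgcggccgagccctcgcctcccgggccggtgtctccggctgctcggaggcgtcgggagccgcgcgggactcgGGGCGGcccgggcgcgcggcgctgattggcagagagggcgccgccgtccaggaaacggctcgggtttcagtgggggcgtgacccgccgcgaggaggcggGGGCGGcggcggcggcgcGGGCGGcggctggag
FGFR3: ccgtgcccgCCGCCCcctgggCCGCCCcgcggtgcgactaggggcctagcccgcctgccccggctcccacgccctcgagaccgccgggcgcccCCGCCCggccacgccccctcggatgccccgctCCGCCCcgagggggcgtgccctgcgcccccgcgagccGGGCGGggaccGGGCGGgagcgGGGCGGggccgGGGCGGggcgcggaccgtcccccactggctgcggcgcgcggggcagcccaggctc
FGFR4: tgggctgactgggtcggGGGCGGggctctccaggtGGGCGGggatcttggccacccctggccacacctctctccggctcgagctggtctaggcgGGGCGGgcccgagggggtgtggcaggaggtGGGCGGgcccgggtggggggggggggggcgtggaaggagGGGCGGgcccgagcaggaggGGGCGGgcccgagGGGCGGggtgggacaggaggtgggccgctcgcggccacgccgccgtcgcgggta
The window of FGFR2 held 3 GC boxes at 78.4% G and C, that of FGFR3 held 8 at 86.8%, and that of FGFR4 held 7 at 79.6%. Of 35116 RefSeq windows of the same length, 42.6% held at least 1 GC box and the median G and C content was 58.0%. The letters TGANTCA, bound by AP-1, stood in 6.57% of all windows and the letters ACAANG, bound by SOX proteins, in 30.9%, and neither stood in these 3 windows on either strand (overlapping matches were counted). By contrast, the window of FGFBP1 was 40.8% G and C and held no GC box. It held 1 match to ACAANG, as did the windows of FGFRL1 and FGF1. A window was found for 8 of the 10 genes, all except FGFR1 and FGF19.

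Library totals ran from 47016495 to 70986593 counts. In a chi-square test of genes with at least 100 counts, between 23.6% and 58.5% of genes differed between the 2 libraries of a group at an unadjusted p under 0.05, so no library was a copy of another. All 10 epithelial markers on a list (EPCAM, CDH1, KRT5, KRT8 and others) had at least 10 counts in every library, with a summed level of 12860 to 15055 CPM (counts scaled to the library total). Single markers moved within this sum, and those given here were picked after their values were seen. KRT8 had a mean of 37012 normalized counts in Cl10 against 93463 in the control, and KRT18 13632 against 24632. PKP1 was higher in Cl1, with a mean of 22572 against 11467 in the control. The summed level of 6 fibroblast markers was 30.3 to 50.9 CPM, nearly all from COL1A1 and COL3A1, lower in both Cl10 libraries than in the other 4. Leukocyte markers summed to 6.32 to 13.2 CPM, nearly all from CD14, which was higher in all 4 clone libraries than in either control library. Endothelial markers summed to 2.78 to 8.07 CPM, mostly from VWF, which was highest in both Cl1 libraries, with KDR at 0. The salivary acinar markers summed to 0.208 to 0.436 CPM, so that markers of normal acinar cells were almost absent from these cells of the salivary gland. DUSP1 itself (chr5:172768096-172771195, minus strand, GRCh38) had 745 and 636 normalized counts in the control, 304 and 354 in Cl1 and 495 and 415 in Cl10. By edgeR's quasi-likelihood test with Benjamini-Hochberg adjustment, Cl1 differed from the control by -1.07 on the log2 scale (standard error, SE, 0.149, adjusted p = 0.000292) and Cl10 by -0.59 (SE 0.134, adjusted p = 0.0113). The count is over the whole gene and does not measure the deleted exon by itself.

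Normalized counts in the text are counts scaled by the TMM method to a common library size, and RPKM is the normalized level divided by the length of the Ensembl canonical transcript (reads per kilobase, scaled to the library total). A gene passed a comparison at an adjusted p under 0.05, and it was called when its log2 fold change was also above 1 or below -1. In Cl1 against the control, 7 of the 10 FGF genes passed, beside 25.1% of the 20153 genes tested. Of these 3 were higher (12.4% of all genes) and 4 lower (12.8%). In Cl10 against the control, 9 passed, beside 42.5% of 19875 genes, 3 of them higher (20.6%) and 6 lower (21.8%). Called in Cl1 were FGFR4 and FGF19, beside 7.54% of all genes, both lower (3.27%) and none higher (4.27%). Called in Cl10 were 5 genes, beside 13.4% of all genes. FGFR2 was the 1 called higher (5.98%), and FGFR4, FGFRL1, FGFBP1 and FGF19 were called lower (7.44%). The normalized counts of the groups did not overlap for 10 of the 10 genes in Cl1 (63.6% of all genes) and for 9 in Cl10 (73.8%), FGF1 being the exception. The median log2 fold change of the 10 genes was -0.24 in Cl1 and -0.48 in Cl10, where the median of all genes was -0.01 in both. The clones share the control libraries, so a deviation of a control library moves the values of both clones. In bulk RNA, fewer cells that express a gene and less RNA of it per cell cannot be told apart.

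**Figure D1:**
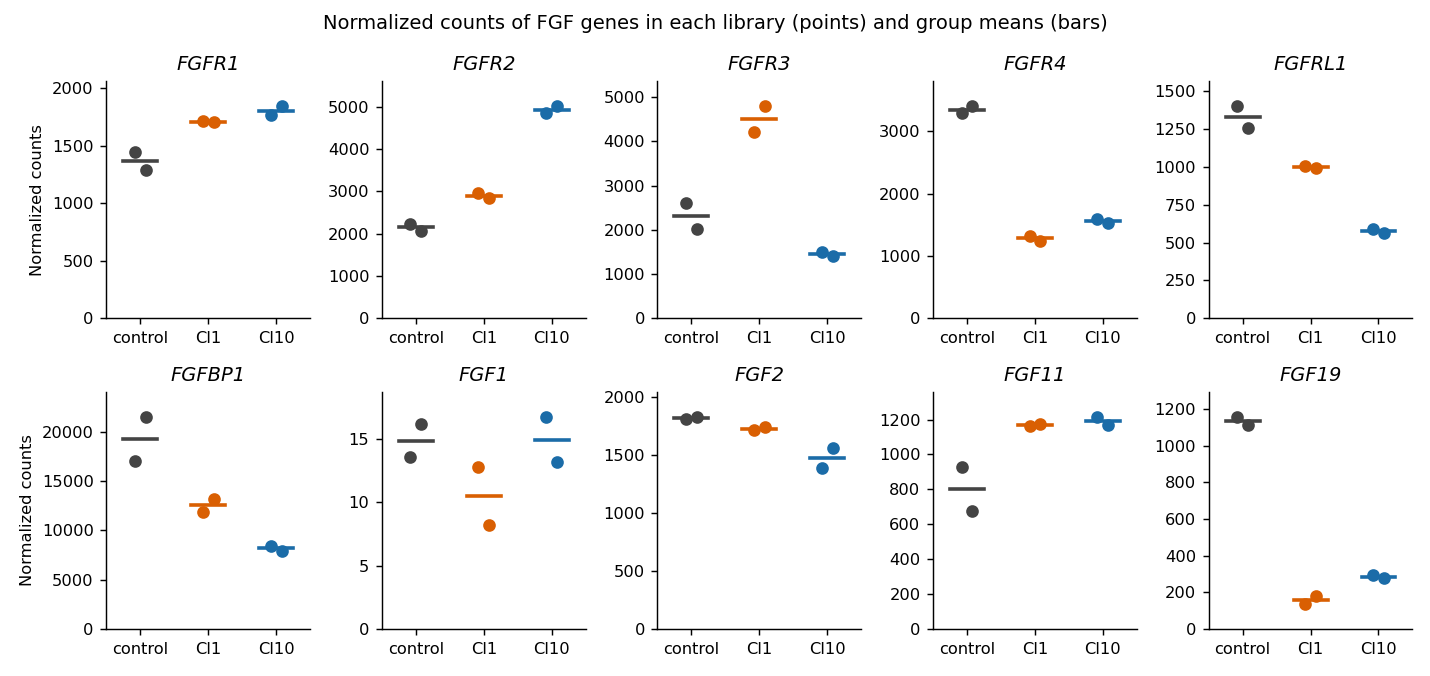
Normalized counts (y axes, each from 0) of the 10 FGF genes in the 2 libraries of each group (points), with the group mean as a bar. FGFR2 was highest in both Cl10 libraries and FGFR3 in both Cl1 libraries, while FGFR4 and FGF19 were lower in all 4 clone libraries than in either control library.

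Among the receptors, FGFR4 (ENSG00000160867, chr5:177086905-177098144, plus strand) was lower in both clones. The control libraries had 3291 and 3401 normalized counts, Cl1 had 1315 and 1248, and Cl10 had 1592 and 1524. All clone libraries lay below both control libraries, by more than the spread within any group. FGFR4 was 2.61-fold lower in Cl1 (log2 fold change -1.38, SE 0.108, adjusted p = 3.05e-06 by the quasi-likelihood test of edgeR) and 2.14-fold lower in Cl10 (-1.10, SE 0.0783, adjusted p = 0.000134).

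FGFR3 (ENSG00000068078, chr4:1793293-1808872, plus strand) was higher in Cl1 and lower in Cl10 than in the control, the latter together with its chromosome neighbours. The control libraries had 2605 and 2024 normalized counts, the Cl1 libraries 4202 and 4791, and the Cl10 libraries 1488 and 1412. Cl1 lay above and Cl10 below both control libraries, which differed more from each other than the libraries of Cl10 did. FGFR3 rose 1.94-fold in Cl1 (log2 fold change 0.96, SE 0.134, adjusted p = 0.000305 from edgeR) and fell 1.59-fold in Cl10 (log2 fold change -0.67, SE 0.126, adjusted p = 0.00548). The 50 nearest genes had a median of -0.82 in Cl10, and with it subtracted the value there was 0.15 and did not pass. Directly compared, it was 3.09-fold lower in Cl10 than in Cl1 (log2 fold change -1.63, SE 0.0738, adjusted p = 1.04e-08), the only one of the 10 genes called between the clones. Of 19818 genes, 10.8% were called there, 4.47% higher and 6.28% lower.

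FGFR2 (ENSG00000066468, chr10:121478332-121598458, minus strand) was higher in both clones and highest in Cl10. It had 2221 and 2065 normalized counts in the control, 2963 and 2829 in Cl1 and 4841 and 5002 in Cl10. The 3 groups were ordered without overlap. It rose 1.35-fold in Cl1 (log2 fold change 0.44, SE 0.107, adjusted p = 0.0107) and 2.30-fold in Cl10 (log2 fold change 1.20, SE 0.0831, adjusted p = 0.000124), and was 1.70-fold higher in Cl10 than in Cl1 (log2 fold change 0.77, SE 0.0588, adjusted p = 5.45e-07 from edgeR).

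FGFR1 (ENSG00000077782, chr8:38400215-38468834, minus strand) had 1441 and 1286 normalized counts in the control, 1713 and 1702 in Cl1 and 1769 and 1840 in Cl10. Both clones lay above the control without overlap. The difference passed in Cl10 (log2 fold change 0.41, SE 0.0906, adjusted p = 0.0108) and just missed the threshold in Cl1 (0.33, SE 0.112, adjusted p = 0.0504 from edgeR). Without Cl10 replicate 1 (0.44) or replicate 2 (0.38) it did not pass in Cl10, at values close to the one with both. FGFR1 overlaps 4 other annotated genes, 2 of them on the opposite strand, so a part of its counts may belong to them.

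FGFRL1 (ENSG00000127418, chr4:1009936-1026898, plus strand), the receptor without a kinase, had 1400 and 1261 normalized counts in the control, 1009 and 993 in Cl1 and 591 and 560 in Cl10. The groups stepped down from control to Cl1 to Cl10 without overlap. It fell 1.33-fold in Cl1 (log2 fold change -0.41, SE 0.116, adjusted p = 0.0219) and 2.30-fold in Cl10 (log2 fold change -1.20, SE 0.0999, adjusted p = 0.000223 from edgeR). The 50 nearest genes had a median of -0.79 in Cl10, and with it subtracted the value there was -0.41 and still passed. With the same subtraction, Cl10 against Cl1 stood at 0.065 and did not pass.

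Set against each other per length, the 4 receptor kinases summed to 40.4 ± 1.97 RPKM in the control, 41.5 ± 1.04 in Cl1 and 38.6 ± 0.0928 in Cl10 (SD, n = 2). FGFR4 held 46.7% ± 3.36 in the control, 17.4% ± 1.07 in Cl1 and 22.7% ± 0.760 in Cl10. FGFR3 held 23.1% ± 2.98, 43.8% ± 2.96 and 15.2% ± 0.596 in the same order, and FGFR2 held 19.95% ± 0.0503, 26.3% ± 1.52 and 47.9% ± 0.996. The leading receptor per length was thus FGFR4 in the control, FGFR3 in Cl1 and FGFR2 in Cl10, while FGFR1 held between 10.3% and 14.3%. Sums and shares rest on the transcript length used. With the length of all annotated exons, an alternative chosen after the values were seen, the sums were 23.7 ± 1.40 RPKM in the control, 25.1 ± 1.23 in Cl1 and, below both, 17.2 ± 0.211 in Cl10 (SD, n = 2). With that length FGFR2 held only 8.34%, 10.7% and 26.4%, FGFR4 led in the control (51.0%) and in Cl10 (32.7%), and FGFR3 led in Cl1 (64.0%), so FGFR2 led in Cl10 only with the canonical transcript.

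**Figure D2:**
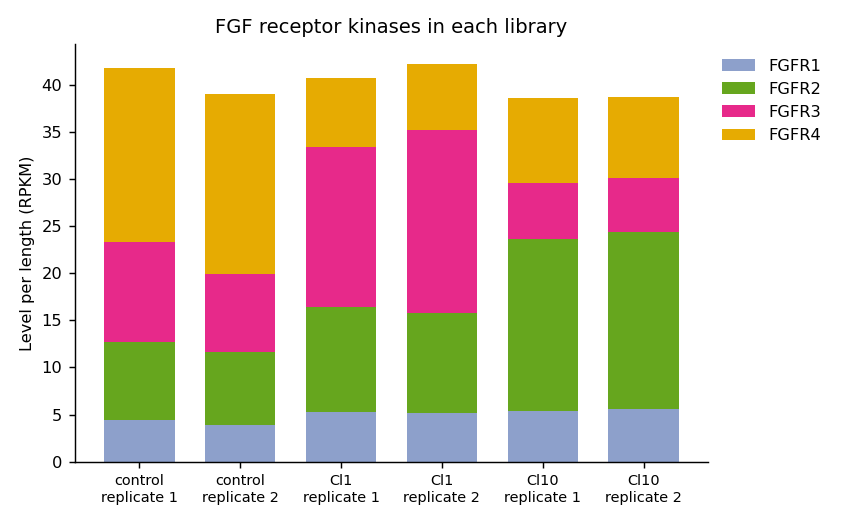
Level per length (RPKM, y axis) of FGFR1, FGFR2, FGFR3 and FGFR4 stacked for each of the 6 libraries. With canonical transcript lengths the group means of the summed height lie between 38.6 and 41.5 RPKM and the largest block is FGFR4 in the control, FGFR3 in Cl1 and FGFR2 in Cl10, whereas with all-exon lengths (not drawn) the sum was 17.2 RPKM and FGFR4 led in Cl10.

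FGFBP1 (ENSG00000137440, chr4:15935577-15938740, minus strand), the carrier, had the highest level per length of the 10 genes in every group, at 248 ± 40.6 RPKM in the control, 161 ± 12.3 in Cl1 and 105 ± 4.87 in Cl10 (SD, n = 2). The control libraries had 17034 and 21502 normalized counts, Cl1 had 11858 and 13211, and Cl10 had 8469 and 7934. The groups did not overlap, although the control libraries lay far apart. FGFBP1 fell 1.53-fold in Cl1 (log2 fold change -0.62, SE 0.140, adjusted p = 0.00685) and 2.34-fold in Cl10 (log2 fold change -1.23, SE 0.123, adjusted p = 0.000424 by the quasi-likelihood test of edgeR). The 50 nearest genes had a median of -0.90 in Cl10, and with it subtracted the value there was -0.33 and did not pass. With the same subtraction, Cl10 against Cl1 stood at 0.17 and did not pass.

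Of the ligand genes, FGF19 (ENSG00000162344, chr11:69698238-69704022, minus strand) differed most. It had 1156 and 1111 normalized counts in the control, 138 and 182 in Cl1 and 293 and 278 in Cl10. The control libraries lay far above all 4 clone libraries, and Cl10 lay above Cl1. FGF19 fell 7.13-fold in Cl1 (log2 fold change -2.83, SE 0.158, adjusted p = 2.15e-07) and 3.96-fold in Cl10 (log2 fold change -1.98, SE 0.102, adjusted p = 5.19e-05), and was 1.80-fold higher in Cl10 than in Cl1 (log2 fold change 0.85, SE 0.163, adjusted p = 0.000866 from edgeR). Per length only FGFBP1 and FGFR4 were above it in the control (10.8 ± 0.303 RPKM), and only FGF1 was below it in both clones (1.53 ± 0.292 in Cl1 and 2.72 ± 0.103 in Cl10, SD, n = 2). With all-exon lengths FGFRL1 (2.30 RPKM) and FGFR1 (1.82) were also below it in Cl10. Its co-receptor gene KLB had between 3 and 10 raw counts in every library and was too low to be tested.

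FGF11 (ENSG00000161958, chr17:7438273-7444937, plus strand) had 926 and 677 normalized counts in the control, 1163 and 1177 in Cl1 and 1214 and 1169 in Cl10. All clone libraries lay above both controls, and the clones overlapped each other. It rose in Cl1 (log2 fold change 0.54, SE 0.147, adjusted p = 0.0171) and in Cl10 (0.57, SE 0.148, adjusted p = 0.0192 from edgeR). The size of these values moved with the control libraries. Without control replicate 2 the log2 fold change was 0.34 in Cl1 and 0.36 in Cl10, and without control replicate 1 it was 0.79 and 0.81. FGF11 overlaps 3 other annotated genes.

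FGF2 (ENSG00000138685, chr4:122826682-122898236, plus strand) had 1808 and 1825 normalized counts in the control, 1712 and 1737 in Cl1 and 1388 and 1557 in Cl10. The Cl10 libraries were lowest and differed most from each other. FGF2 fell by 0.30 on the log2 scale in Cl10 (SE 0.0895, adjusted p = 0.0330 from edgeR), but did not pass there with DESeq2. Without 1 library its value in Cl10 ran from -0.38 to -0.21. In Cl1 the value of FGF2 was -0.07 (adjusted p = 0.658 from edgeR). NUDT6, on the opposite strand, overlaps FGF2, so reads of both may be mixed. FGF1 (ENSG00000113578, chr5:142592178-142698070, minus strand) was near the detection limit, with raw counts of 16 and 15 in the control, 15 and 7 in Cl1 and 17 and 11 in Cl10, and passed in no comparison.

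In order of level per length, the control ran from FGFBP1 through FGFR4, FGF19, FGFR3, FGFR2, FGFRL1, FGF11, FGF2 and FGFR1 to FGF1 (0.0688 ± 0.00850 RPKM, SD, n = 2). The libraries of FGFR3 and FGFR2 overlapped, as did those of FGF11 and FGF2, so these neighbours in the order did not differ beyond their spread. After FGFBP1 came FGFR3 in Cl1, at 18.2 ± 1.68 RPKM, and FGFR2 in Cl10, at 18.5 ± 0.429 RPKM (SD, n = 2). No neighbouring genes in the order overlapped within a clone. This order holds for canonical transcript lengths. With all-exon lengths FGFR4 (5.63 RPKM) and FGFR3 (5.198) stood above FGFR2 (4.55) in Cl10, and FGFR2 (1.98) stood below FGFRL1 (5.32), FGF2 (4.64) and FGF11 (2.74) in the control.

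**Figure D3:**
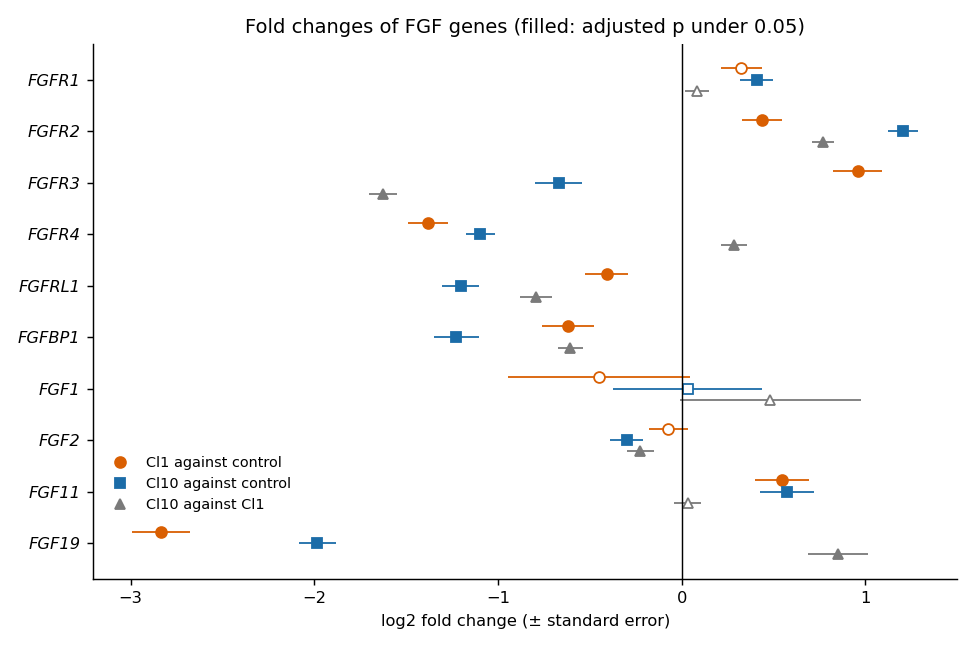
Log2 fold change (x axis) of each FGF gene in Cl1 against control (circles), Cl10 against control (squares) and Cl10 against Cl1 (triangles), with standard errors as bars and filled symbols for an adjusted p under 0.05. FGFR3 lies on opposite sides of 0 in the 2 clones, although its value in Cl10 was 0.15 and did not pass once the median of its chromosome neighbours was subtracted, and FGF19 lies farthest from 0, at -2.83 in Cl1 and -1.98 in Cl10.

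Compared directly, 7 of the 10 genes passed between Cl10 and Cl1, beside 49.0% of all genes tested, 3 of them higher in Cl10 (24.9%) and 4 lower (24.1%). The clones did not overlap for 9 of the 10 genes, beside 74.8% of all genes. FGFR2, FGFR4 and FGF19 were higher in Cl10 than in Cl1, and FGFR3, FGFRL1, FGFBP1 and FGF2 were lower. With the median of the 50 nearest genes on the chromosome subtracted, FGFR4 passed in the other direction (-0.20), FGFRL1 (0.065) and FGFBP1 (0.17) changed sign without passing, FGF2 did not pass, and FGF11 passed lower (-0.20). For FGFRL1 the log2 fold change was -0.79 (SE 0.0872, adjusted p = 1.05e-05) and for FGFBP1 it was -0.61 (SE 0.0679, adjusted p = 1.21e-05 from edgeR). FGFR4 differed by 0.29 (SE 0.0715, adjusted p = 0.00532) and FGF2 by -0.23 (SE 0.0748, adjusted p = 0.0246). For FGFR1, FGF1 and FGF11 the values without that subtraction were 0.08, 0.48 and 0.03, and none passed.

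The FGF genes were also set beside their neighbours on the chromosome, as the median log2 fold change of the 50 nearest tested genes. FGFR3, FGFRL1 and FGFBP1 lie on the short arm of chromosome 4, where in Cl10 the median over 126 genes from the start of the chromosome to FGFBP1 was -0.89 and 91 of them passed lower against 3 higher. That stretch had a median of 0.053 over 132 genes in Cl1. Of the 50 neighbours of FGFR3, 47 were below 0 in Cl10. The neighbours of FGFRL1 had a median of -0.79, which left -0.41 for FGFRL1, and those of FGFBP1 a median of -0.90, which left -0.33 for FGFBP1 and did not pass. After this subtraction FGF2 and FGF11 did not pass in Cl10 either, so that 5 of the 10 genes passed there in place of 9.

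FGFR4 lies 4.32 Mb from DUSP1 on chromosome 5. From DUSP1 to the end of that chromosome, the median over 120 genes was -0.43 in Cl1, with 60 passed lower and 4 higher, and over 123 genes it was 0.019 in Cl10. The neighbours of FGFR4 had a median of -0.43 in Cl1, which left -0.95 for FGFR4, and of -0.0048 in Cl10, which left -1.09, and FGFR4 passed in both. The neighbours of FGFR2 had a median of 0.21 in Cl10, which left 1.00, also past the test. For FGFR3 in Cl1 the neighbours had a median of 0.11, which left 0.85. The part that these chromosome stretches have in the values of the FGF genes was not tested beyond this subtraction.

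FGF19 went against its surroundings. The median of its 50 neighbours was 0.25 (Cl1) and 0.40 (Cl10), and all 50 had a higher log2 fold change than FGF19 in both clones. Of 10 genes around it at 11q13, a region often amplified in squamous carcinoma, 9 were tested in Cl1, where 3 passed higher and 1 lower, and 8 in Cl10, where 7 passed higher and 1 lower. Their median was 0.18 in the first clone and 0.44 in the second. Over all genes tested, 12.4% passed higher and 12.8% lower in Cl1, and 20.6% and 21.8% in Cl10. CCND1, the cyclin D1 gene 0.0438 Mb from FGF19, rose in Cl1 (log2 fold change 0.80, SE 0.130, adjusted p = 0.000853) and in Cl10 (0.70, SE 0.0851, adjusted p = 0.000902 from edgeR). SHANK2, a scaffold protein gene, rose by 1.03 in Cl1 and by 0.67 in Cl10 on the log2 scale. The gene that passed lower in both clones was ANO1, a chloride channel gene (-0.58 and -0.96), named here after its values were seen.

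**Figure D4:**
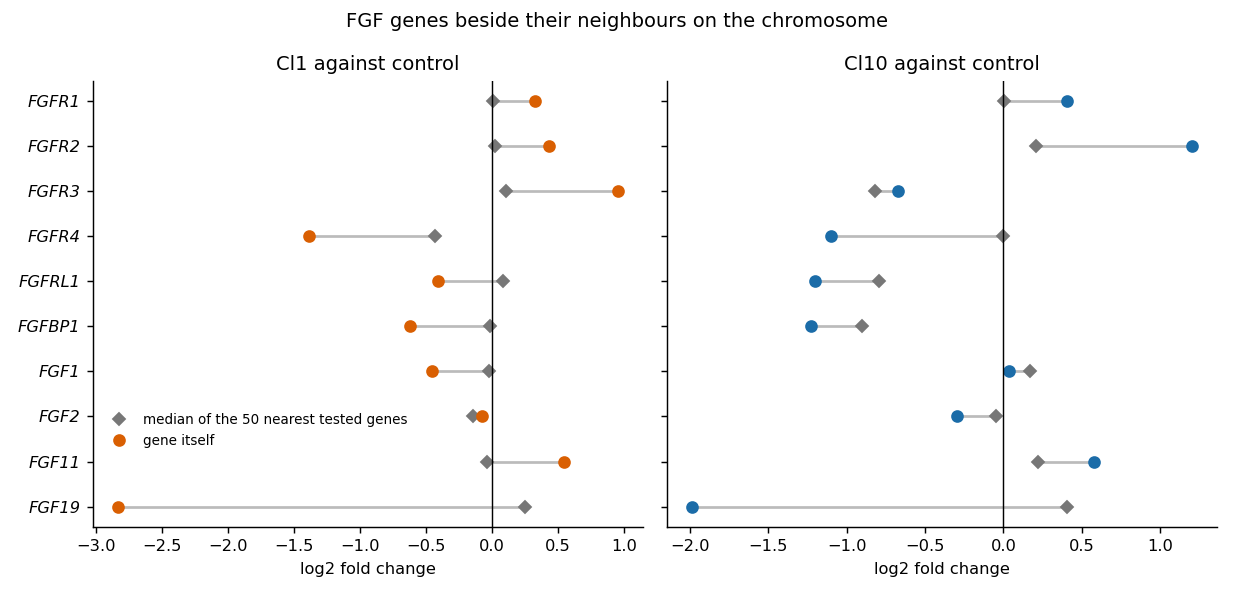
Log2 fold change (x axes) of each FGF gene (circles) and the median of its 50 nearest tested genes (diamonds), for Cl1 against control on the left and Cl10 against control on the right. In Cl10 the diamonds of FGFR3, FGFRL1 and FGFBP1 lie at -0.82, -0.79 and -0.90, while those of FGF19 lie above 0 in both clones.

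Most of the other FGF genes, which include intracellular factors as well as ligands, were low in these cells. Of 18, 12 had at most 15 raw counts in any library and 2 had none. Of 8 tested in Cl1, 1 passed higher (12.4% of all genes) and 1 lower (12.8%). Of 6 tested in Cl10, 3 passed higher (20.6%) and none lower (21.8%). Those that passed were FGF22 (higher in both clones) and FGF21 (lower in Cl1), both with a mean under 1 CPM over all libraries, and FGF12 and FGF13 in Cl10. All of them but FGF13 are named after their values were seen. FGF13, an intracellular FGF homologous factor like FGF11, had raw counts of 3 and 0 in the control, 0 and 0 in Cl1 and 256 and 233 in Cl10. It was therefore near or at 0 except in Cl10, where it was 186-fold higher than in the control (95% exact counting interval 63.2 to 904, adjusted p = 7.31e-05 from edgeR) and at least 87.3-fold higher than in Cl1, against a floor of 3 counts per library. Interval and floor cover counting error only.

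Among the co-receptors and carriers, FLRT3, a membrane protein that binds FGF receptors, had raw counts of 297 and 275 in the control, 0 and 0 in Cl1 and 1 and 1 in Cl10. It was present in both control libraries and all but absent from the 4 clone libraries, at least 90.0-fold lower in Cl1 against the same floor (adjusted p = 2.10e-07 from edgeR). The ratio of control to Cl10 was 251 (95% exact counting interval 69.2 to 2078, adjusted p = 3.61e-05 from edgeR). Its relative FLRT1 had 361 and 258 normalized counts in the control, 155 and 239 in Cl1 and 144 and 147 in Cl10. FLRT1 fell by 0.67 on the log2 scale in Cl1 (SE 0.223, adjusted p = 0.0445) and by 1.09 in Cl10 (SE 0.194, adjusted p = 0.00438 from edgeR). Of 7 genes on this list 4 were tested in each clone. In Cl1, 2 passed lower (12.8% of all genes) and none higher (12.4%). In Cl10, 2 passed lower (21.8%) and 1 higher (20.6%), the last being FLRT2, a low gene named after its values were seen.

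Of 16 tested genes for heparan sulfate chains and their core proteins, 5 passed higher and 2 lower in Cl1, and 5 higher and 5 lower in Cl10. None was called in either clone (7.54% of all genes in Cl1 and 13.4% in Cl10). Their median log2 fold change was 0.22 in Cl1 and 0.06 in Cl10. Of all genes, 12.4% passed higher and 12.8% lower in Cl1, and 20.6% and 21.8% in Cl10. SDC4 and GPC1, core proteins picked after their values were seen, passed higher in Cl1 (0.52 and 0.42) and lower in Cl10 (-0.25 and -0.26). Of the 16 receptor adaptors and effectors, 4 passed higher and 4 lower in Cl1, and 6 higher and 3 lower in Cl10, with medians of 0.03 and 0.19. FRS2, the docking protein of the receptors, rose by 0.41 in Cl1 (SE 0.116, adjusted p = 0.0209 from edgeR) and had a value of 0.12 in Cl10 (adjusted p = 0.379).

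FGF feedback and target genes did not move one way. Of 11 tested, 3 passed higher and 2 lower in Cl1, and 4 higher and 5 lower in Cl10, with medians of -0.04 and -0.08. Over all genes, 12.4% passed higher and 12.8% lower in Cl1, and 20.6% and 21.8% in Cl10. DUSP6, the ERK phosphatase induced by FGF signalling, had 407 and 477 normalized counts in the control, 891 and 689 in Cl1 and 1105 and 1134 in Cl10. The 3 groups did not overlap. It rose by 0.85 in Cl1 (SE 0.156, adjusted p = 0.00196) and by 1.35 in Cl10 (SE 0.111, adjusted p = 0.000215 from edgeR).

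SPRY4, an inhibitor of receptor signalling, rose by 0.81 on the log2 scale in Cl1 (adjusted p = 0.000983) and by 0.41 in Cl10 (SE 0.108) by edgeR, and SPRY3 rose by 1.48 in Cl10 (adjusted p = 0.00161), where it had 124 and 115 normalized counts. For SPRY2 the values were 0.31 and 0.28, and neither passed. SPRY1, added after its values were seen, rose by 0.96 in Cl1 and fell by 0.81 in Cl10, and its log2 fold change of Cl10 against Cl1 was -1.78 (adjusted p = 2.29e-05 from edgeR). In contrast to DUSP6 and SPRY4, the ETS factors ETV4 and ETV5 were lower in both clones. ETV4 fell by 0.88 in Cl1 (adjusted p = 0.000436) and 0.54 in Cl10 (adjusted p = 0.00373), and ETV5 fell by 0.65 in Cl1 (adjusted p = 0.00618) and 0.93 in Cl10 (adjusted p = 0.00135 from edgeR).

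**Figure D5:**
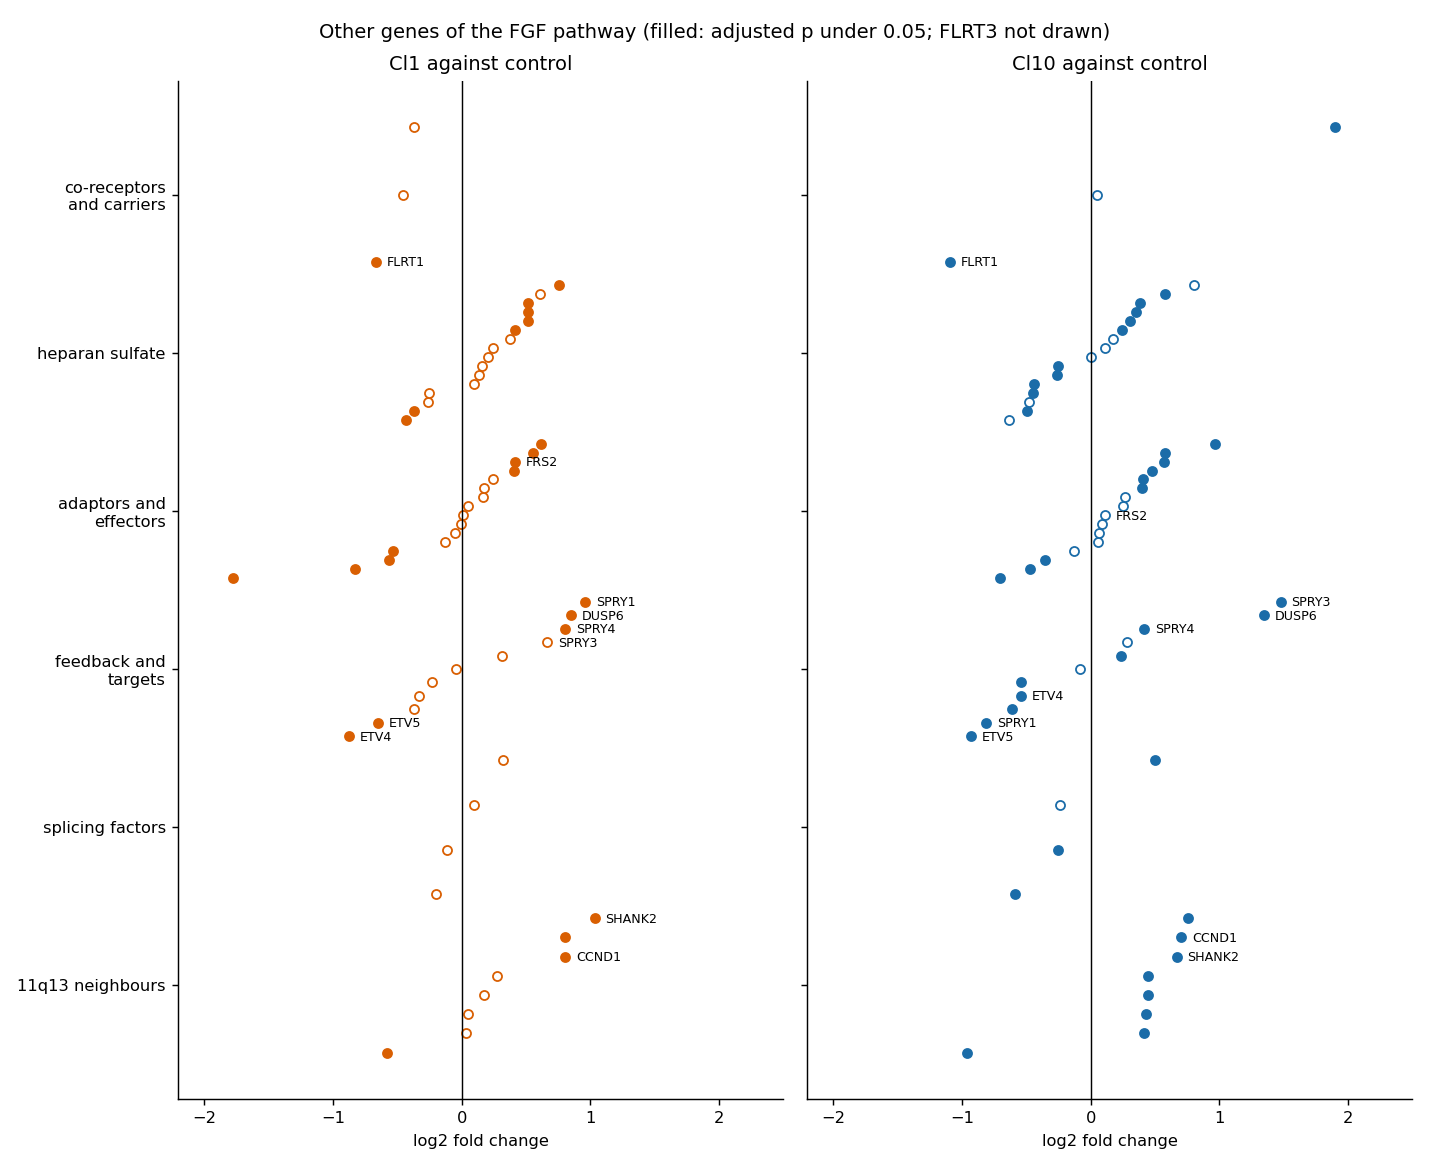
Log2 fold change (x axes) of the tested genes of 6 FGF-related lists in Cl1 and in Cl10 against control, 1 point a gene, filled for an adjusted p under 0.05 (height within a list only spreads the points, FLRT3 is given in the text as a bound, and FGF3 is not drawn). DUSP6 and SPRY4 lie above 0 and ETV4 and ETV5 below 0 in both panels, while SPRY1 changes sides.

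Of 4 factors that set the choice between the IIIb and IIIc exons of FGFR2, none passed in Cl1, and 1 passed higher and 2 lower in Cl10. Of all genes, 25.1% passed in Cl1, and 20.6% passed higher and 21.8% lower in Cl10. PTBP1 was the gene higher in Cl10, with a mean of 37838 normalized counts against 26842 in the control. RBFOX2 was lower there, with a mean of 7000 against 10557. PTBP1 and RBFOX2 are named after their values were seen. ESRP1, which favours the epithelial exon, fell by 0.25 on the log2 scale in Cl10 (SE 0.0765, adjusted p = 0.0343 from edgeR) and had a value of -0.11 in Cl1. ESRP2, with the same role, stood at 0.32 (Cl1) and -0.24 (Cl10), where neither value passed, and its log2 fold change of Cl10 against Cl1 was -0.56 (adjusted p = 1.50e-05 from edgeR). Both remained well expressed, ESRP1 at 5697 to 6899 and ESRP2 at 2637 to 4175 normalized counts over the 6 libraries.

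The genes whose levels over the 6 libraries were most like those of FGF19 were CCND2, IL24 and FAM167A, by the root mean square difference of log2 normalized counts centred on each gene's mean among 11655 genes that reached a mean of 5 CPM. The differences were 0.274, 0.301 and 0.370, and no gene came within 0.2. For FGFR2 the most alike were EXOG, PGBD5 and SLC12A2, at 0.0248, 0.0479 and 0.0490, and 256 genes came within 0.2.

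The number of genes that passed in Cl1 fell when a Cl1 library was left out, with little change in the values. Without Cl1 replicate 1, 3 of the 10 genes passed in Cl1 in place of 7, with FGFR2, FGFRL1, FGFBP1 and FGF11 no longer past the test and log2 fold changes of 0.40, -0.42, -0.54 and 0.55. Without Cl1 replicate 2, 5 passed, and FGFR2 (0.47) and FGFRL1 (-0.39) again did not, whereas FGFR3, FGFR4 and FGF19 passed without any 1 of the libraries in both clones.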

How the data were processed

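A253 RNA was sequenced as poly(A)-selected, paired-end libraries. The study's methods name a TruSeq RNA kit and the labels a stranded mRNA kit. The authors used HISAT2 (hg38) for alignment and HTSeq for counting, and the deposited values are raw counts per gene (the submitters' processing notes also list StringTie and DESeq). The annotation, versions and strand setting are not given in the sources used here. The SOX2 libraries were not used here, and 0 columns of the table were left out.

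Positions come from GENCODE v44 (58207 of 58735 identifiers matched, with 99.9% of the counts), and symbols and canonical transcripts from the same annotation. Identifiers were used because 27 names had the form of a date. Each pair of groups was fitted on its 4 libraries with edgeR 4.0.16 in R 4.3.3 (filterByExpr, TMM, glmQLFit, glmQLFTest, Benjamini-Hochberg over all genes tested). Standard errors are the absolute log2 fold change over the square root of F. On simulated counts for Cl1 against control, 200 of 19731 genes were changed 4-fold. Of the 200, 179 were recovered in the right direction, 138 of 138 with a mean over 1 CPM, and 24 unchanged genes passed. Smaller changes were not simulated. Neighbour medians were subtracted as an offset in the fit. Likeness used a pseudocount of 1.

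The 10 genes and the lists were chosen with earlier results of these data known. Named were all 10 genes and, from the lists, genes called in a clone against the control with a mean of at least 1 CPM, plus KLB, FRS2, DUSP6, SPRY2, SPRY4, ETV4, ETV5, ESRP1, ESRP2 and CCND1. The deviations of same-numbered libraries were nearly uncorrelated (correlations from -0.07 to 0.01), and whether such libraries were prepared together is not given in the sources used here. Alternatives were other scalings, filters, DESeq2 1.42.0, a fit over all 6 libraries, a replicate block, stricter thresholds, neighbour subtraction and each library left out.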

Additional observations from a re-analysis of the deposited data

Results flagged for a closer look

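For 7 of the 10 FGF genes the effects of the 2 clones differed from each other, by the edgeR test of Cl10 against Cl1. Of all 19818 genes tested, 49.0% passed that comparison. The log2 fold change of Cl10 against Cl1 was 0.77 for FGFR2, -1.63 for FGFR3, 0.29 for FGFR4, -0.79 for FGFRL1, -0.61 for FGFBP1, -0.23 for FGF2 and 0.85 for FGF19. With the median of the 50 nearest genes subtracted, the value was -0.20 for FGFR4, 0.065 for FGFRL1 and 0.17 for FGFBP1, on the other side of 0, and -0.76 for FGFR3. Of these FGFR4, now lower in Cl10, and FGFR3 passed, and FGFRL1 and FGFBP1 did not. FGF11, which did not differ past the test before, then passed at -0.20. The value of FGFR4 did not pass without Cl10 replicate 1, and that of FGF2 was then -0.14 and did not pass. With 2 libraries in each group, single libraries far from the rest were not looked for.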

How the results depend on the processing

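Of the alternative counts of FGF genes past the test, 36 stayed within 1.5 times the reported 7 (Cl1), 9 (Cl10) and 7 (Cl10 against Cl1), and 6 did not. An adjusted p under 0.01 left 4 in Cl1. A log2 fold change beyond 1 as well left 2 in Cl1, 5 in Cl10 and 1 between the clones, and subtracting the neighbours' median left 5 in Cl10. Without 1 library the counts ran from 3 to 8, from 7 to 9 and from 5 to 7, the 3 without Cl1 replicate 1. The replicate block gave 7, 9 and 7, with the deviations of same-numbered libraries nearly uncorrelated (-0.07, -0.02 and 0.01). FGFR1 passed in Cl1 in 4 alternatives, with DESeq2's size factors, with at least 10 counts in every library, in the fit over 6 libraries and without control replicate 1. For single genes, 348 alternative values kept direction and the result of the test, 27 no longer passed, 4 newly passed and 9 changed sign. With the neighbours' median subtracted these were FGF2 in Cl1 (0.071), FGFR3 (0.15) and FGF1 (-0.13) in Cl10, and FGFR4 (-0.20), FGFRL1 (0.065), FGFBP1 (0.17) and FGF11 (-0.20) between the clones, of which FGFR4 and FGF11 passed in the new direction. FGF1 in Cl10 was also -0.10 without control replicate 1 and -0.15 without Cl10 replicate 1, within a range of -0.15 to 0.18 without 1 library. A stricter threshold can only lower such counts, whereas leaving out a library moved the count in Cl1 in either direction. Otherwise the cause was not tested. Without 1 library, a lone library was assumed to vary like the other group. With 7 to 17 counts, depth limits FGF1.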
